A study of Mus musculus with 9 samples.

Results

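The Hox genes of the 4 mammalian clusters were examined in mouse embryonic stem (ES) cells with and without β-catenin. A member was any gene whose symbol is Hoxa, Hoxb, Hoxc or Hoxd followed only by digits and that had a feature of its own on the array, which gave 37 of the 19938 genes tested. The HoxA cluster gave 10 members, and HoxB, HoxC and HoxD gave 9 each. Every member was represented by 1 feature, so no choice between features was needed.

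Null Eα cells carried no β-catenin allele and stably expressed a fusion of E-cadherin with α-catenin. Null cells had both β-catenin alleles deleted. Flox cells, the controls, had lost 1 allele and kept the other in floxed form, so that all groups lacked at least 1 allele. Each group had 3 arrays, and all cells shared a mixed S129S6-C57BL/6 background. They were grown on gelatin in serum with leukaemia inhibitory factor (LIF) and harvested before confluence. The labels call the arrays biological replicates without saying whether they came from separate lines, so line and genotype cannot be told apart and the p-values measure the spread between these samples only. In bulk RNA a lower signal from fewer cells of a type and one from less RNA per cell cannot be told apart.

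Hox genes encode homeodomain transcription factors that give cells along the head-to-tail axis their positional identity. Within a cluster the genes lie in the order of their paralogue group, and the low-numbered end is switched on earlier and further toward the head than the high-numbered end, which is known as collinearity. In ES cells the clusters are textbook targets of Polycomb repression, and retinoic acid, Wnt signalling through β-catenin and Cdx factors are known to open them during axis elongation. Fibroblasts are known to keep a Hox pattern that reflects the body position they came from.

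The clusters also hold microRNA genes, and the mature strands of those measured are shown because they lie between or within Hox genes and were read out by features of their own. Sequences are RefSeq's, on assembly GRCm38.p6, written 5′ to 3′ with the seed (bases 2 to 8) in capitals. The miR-10 pair shares 1 seed and the miR-196 pair another, while miR-615-3p has a seed of its own.
miR-10a-5p (chr11:96317186-96317208, plus strand): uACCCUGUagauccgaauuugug
miR-10b-5p (chr2:74726074-74726096, plus strand): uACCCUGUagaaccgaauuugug
miR-196a-5p (chr11:96265187-96265208, plus strand, and a second copy in HoxC at chr15:102973365-102973386, plus strand): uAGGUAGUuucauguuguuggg
miR-196b-5p (chr6:52230129-52230150, minus strand): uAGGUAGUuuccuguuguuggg
miR-615-3p (chr15:103014969-103014990, plus strand): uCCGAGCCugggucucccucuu

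Promoters are shown for 3 members, as the 250 bases before the annotated start on the gene's own strand. The RefSeq promoter table matched 21 of the 37 Hox genes, and Hoxc8, Hoxb9 and Hoxc5 were not among them. Hoxa5 and Hoxa13 are shown side by side because the same cluster held a gene that was called in both comparisons with flox and one that was called in none. Capitals mark CG dinucleotides in these 2 sequences, of which Hoxa5 has 28 and Hoxa13 has 35. The median over the matched Hox promoters was 12, against 6 over all 27025 promoters of that length in the table.
Hoxa5 (chr6:52204588-52204837, minus strand): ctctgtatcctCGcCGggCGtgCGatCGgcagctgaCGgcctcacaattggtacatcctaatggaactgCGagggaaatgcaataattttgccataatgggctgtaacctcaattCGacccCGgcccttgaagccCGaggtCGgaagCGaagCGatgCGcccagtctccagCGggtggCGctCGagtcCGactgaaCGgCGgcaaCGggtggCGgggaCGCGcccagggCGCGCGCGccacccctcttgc
Hoxa13 (chr6:52260881-52261130, minus strand): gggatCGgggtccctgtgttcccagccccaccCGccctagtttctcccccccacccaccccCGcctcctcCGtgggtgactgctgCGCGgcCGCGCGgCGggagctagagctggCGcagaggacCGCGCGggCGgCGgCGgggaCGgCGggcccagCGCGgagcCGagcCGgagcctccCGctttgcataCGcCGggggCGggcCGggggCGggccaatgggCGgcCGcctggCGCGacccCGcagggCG
The Hoxd8 promoter is shown for a motif. The letters CTTTGAT, searched on both strands as the core bound by TCF/LEF factors, the DNA-binding partners of β-catenin, stood in 1 of the 21 Hox promoters (4.76%) and in 3.23% of all promoters. In Hoxd8 they occur as a closely spaced pair, in capitals here.
Hoxd8 (chr2:74704365-74704614, plus strand): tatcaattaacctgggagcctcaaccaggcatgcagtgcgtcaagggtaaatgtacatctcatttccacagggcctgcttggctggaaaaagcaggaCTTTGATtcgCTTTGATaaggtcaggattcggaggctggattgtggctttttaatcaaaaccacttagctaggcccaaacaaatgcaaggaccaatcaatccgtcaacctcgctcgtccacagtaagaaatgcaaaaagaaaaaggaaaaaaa
The letters TTTATG, a Cdx-type motif, stood in 4 of the 21 (19.0%; Hoxa7, Hoxd3, Hoxd4 and Hoxd11), against 11.1% of all promoters. TATAAA stood in 2 (9.52%; Hoxd4 and Hoxd13), against 13% of all promoters, and the retinoic acid receptor element, 2 copies of AGGTCA in the same direction with any 5 bases between them, in none, against 0.0074%. All were searched on both strands. In Hoxd4, which has both of the shorter motifs, they stand at separate places. A match describes these letters in this window only.

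The deleted gene was read first. Ctnnb1, the gene for β-catenin, had log2 signals of 10.23, 10.13 and 10.32 in null Eα cells, 10.55, 10.50 and 10.47 in null cells, and 11.13, 11.13 and 11.21 in flox cells. The groups did not overlap. Against flox, the difference was -0.93 ± 0.07 in null Eα cells (limma standard error, adjusted p = 2.66e-06) and -0.65 ± 0.07 in null cells (adjusted p = 2.82e-05). The probes cover the whole transcript, so this signal does not test the deletion itself. Over all features, arrays of 1 group correlated with each other at 0.986 to 0.990 in null Eα, 0.991 to 0.992 in null and 0.995 to 0.997 in flox cells (Pearson's r across features, which are not replicates). ES markers averaged 10.52 to 10.72 in null Eα cells, 8.28 to 8.56 in null cells and 10.89 to 10.93 in flox cells. Of the 10 ES markers, 1 was called higher and 6 lower in null Eα cells, and 1 higher and 9 lower in null cells, against flox. In null cells Dppa5a, an ES cell gene, stood at 6.07 against 12.68 in flox cells, and Esrrb, a factor of the naive state, at 5.04 against 10.57, so ES markers were mostly below their flox level in null cells, which the labels call ES cells.

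Most Hox features were dim in every group. Olfactory receptor genes, of which 1027 were tested, gave a guide to the signal of genes that ES cells are not known to use. It is no detection call, since probes differ in brightness. Their 95th percentile was 5.34 to 5.48 on null Eα arrays, 5.27 to 5.33 on null arrays and 5.04 to 5.12 on flox arrays. Of the 37 Hox genes, 18 lay above it on each null Eα array, 17, 18 and 18 on the null arrays, and 16, 14 and 11 on the flox arrays. The median Hox signal was 5.41, 5.46 and 5.29 in null Eα cells, 5.28, 5.28 and 5.18 in null cells, and 4.97, 4.92 and 4.84 in flox cells. No flox array reached the lowest array of either other group in this median.

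Across all 9 arrays, 10 Hox genes stayed above that percentile: Hoxa4, Hoxa7, Hoxb1, Hoxb2, Hoxb3, Hoxb7, Hoxb9, Hoxd1, Hoxd10 and Hoxd11. On no array did 15 reach it: Hoxa2, Hoxa3, Hoxa10, Hoxa11, Hoxa13, Hoxb13, Hoxc4, Hoxc6, Hoxc10, Hoxc11, Hoxc12, Hoxc13, Hoxd3, Hoxd8 and Hoxd12. Hoxb6, which takes part in thoracic patterning, was the 1 gene above it on all null Eα and null arrays and on no flox array.

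**Figure D1:**
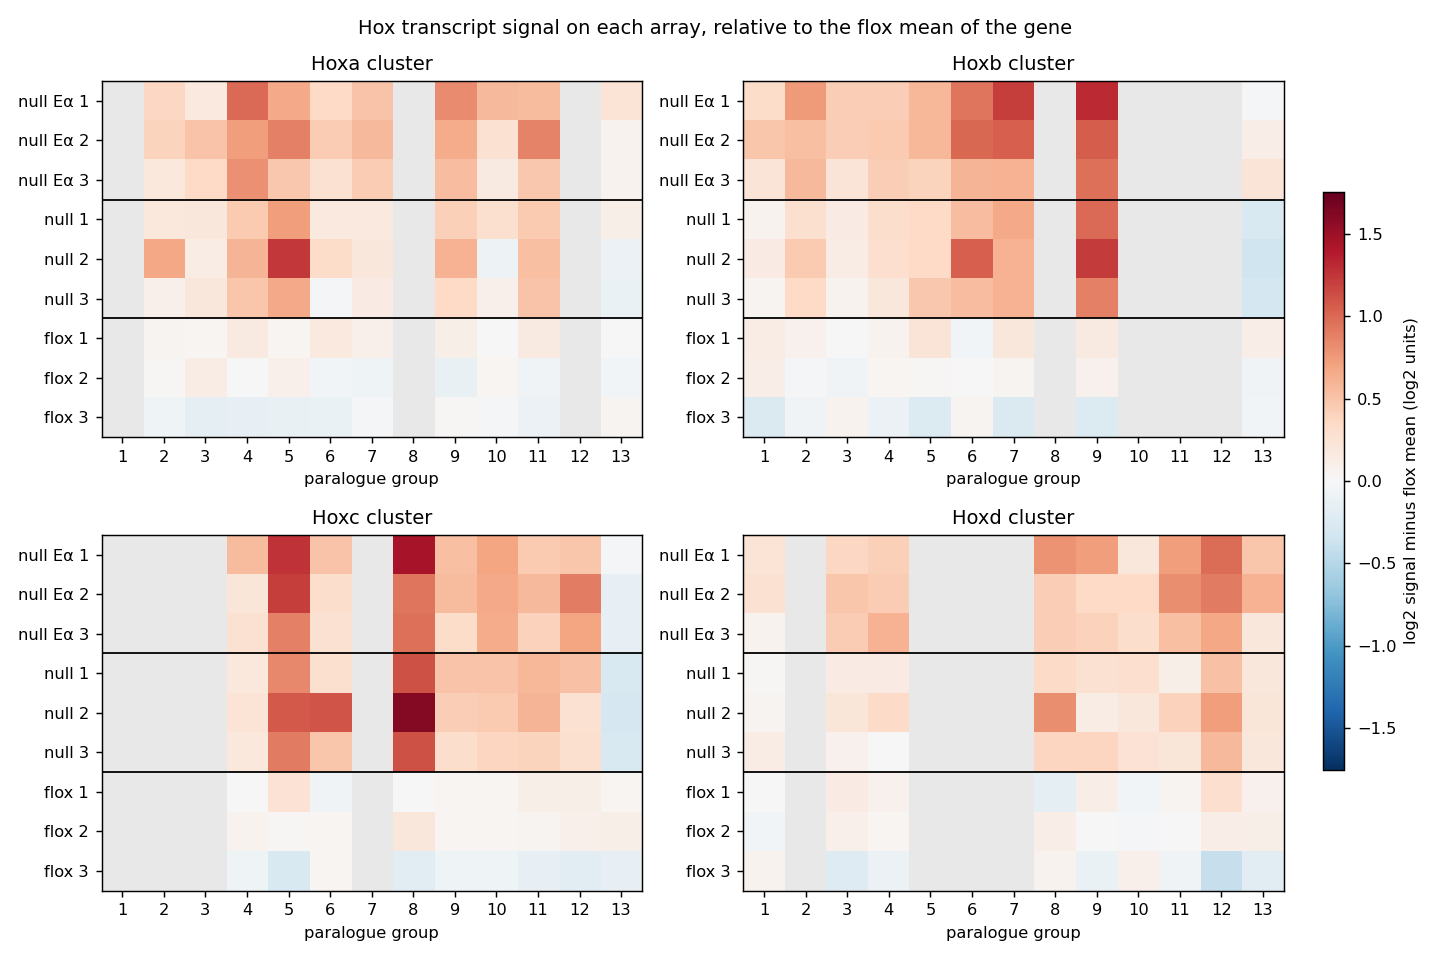
Each panel is 1 Hox cluster. Columns are paralogue groups, rows are arrays with null Eα at the top, null in the middle and flox at the bottom, and colour is the log2 signal minus the gene's flox mean, with grey where no member was measured. The darkest red cell is Hoxc8 on null replicate 2, and Hoxb13 and Hoxc13 are blue on all 3 null arrays.

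The general drift of dim genes is needed to read any count of Hox genes. The olfactory receptor genes themselves had a median difference from flox of 0.22 in null Eα cells and 0.12 in null cells, and 42.8% of them were called higher in null Eα and 16% in null cells, at an adjusted p under 0.05. Over all genes tested the median differences were 0.07 in null Eα and 0.06 in null cells. The signals of Hox genes, averaged over the 9 arrays, ran from 3.92 to 6.80, and 8758 of the genes tested lay in that range. Their median difference was 0.22 in null Eα cells and 0.13 in null cells. The counts over all 37 Hox genes are therefore given beside the share over all genes, over genes of the same range and over olfactory receptor genes.

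**Figure D2:**
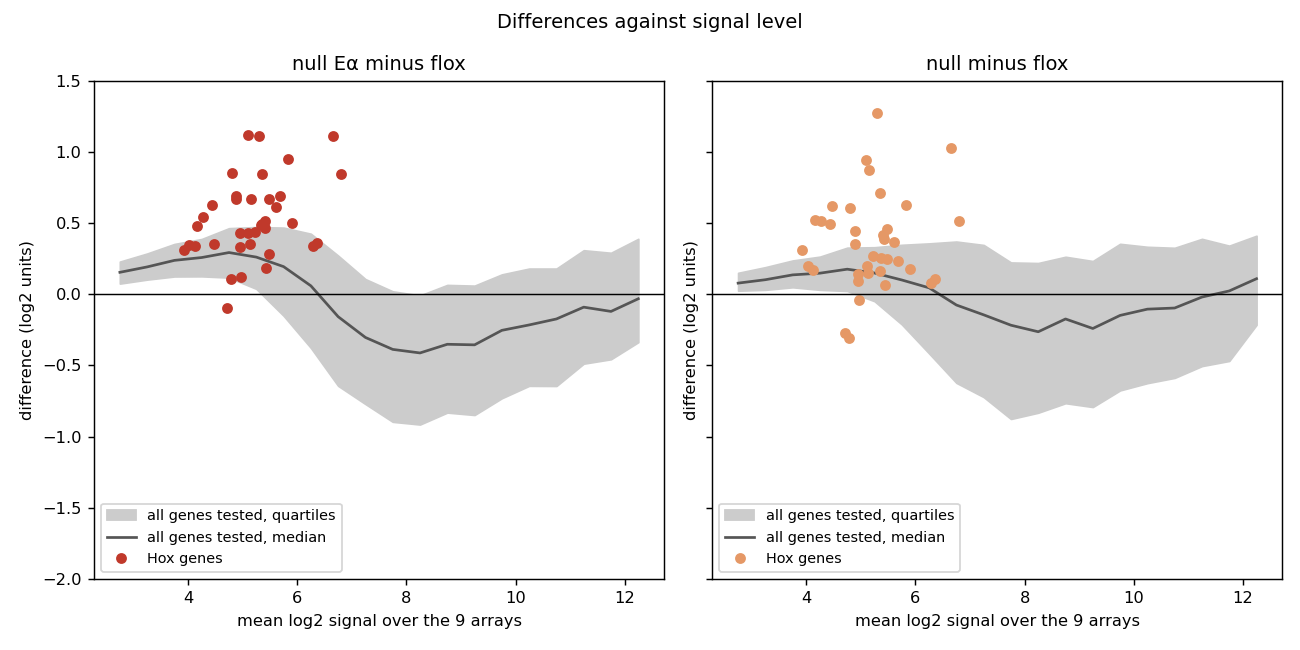
The horizontal axis is a gene's mean log2 signal over the 9 arrays and the vertical axis its difference from flox in log2 units, for null Eα on the left and null on the right. The line and band are the median and quartiles of all genes tested in bins of signal, and points are the 37 Hox genes. The median line lies above 0 up to a signal of 6.5 in both panels, while the lower edge of the band crosses 0 within the Hox range, and the highest points, among them Hoxc8, Hoxc5 and Hoxb9, lie above it.

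In null cells 20 of the 37 Hox genes rose and 2 fell against flox, and 15 were not called. The median difference was 0.32, and 2 genes, Hoxc8 and Hoxb9, rose at least 2-fold. Of all genes tested 26.5% were called higher and 28.7% lower, 29.6% and 18.0% in the range of the Hox genes, and 16% and 0.682% of the olfactory receptor genes. At 54.1% the Hox share called higher stood above each of these shares. In 27 Hox genes the null arrays all lay above the flox arrays, as they did for 35.5% of all genes, 40.8% in the same range and 35.6% of olfactory receptor genes. Rises of at least 2-fold made up 5.03% of all genes.

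In null Eα cells 31 of the 37 rose, none fell at an adjusted or an unadjusted p under 0.05 with limma, and 6 were not called. The median difference was 0.49, and 3 genes, Hoxc5, Hoxc8 and Hoxb9, rose at least 2-fold. The shares called higher and lower were 32.1% and 31.6% over all genes, 44.8% and 17.1% in the range of the Hox genes, and 42.8% and 0.487% over olfactory receptor genes. The Hox share called higher was 83.8%. In 34 Hox genes the null Eα arrays all lay above the flox arrays, against 35.9% of all genes, 48.2% in the range and 49.5% of olfactory receptor genes. Rises of at least 2-fold made up 2.22% of all genes. This comparison shares its flox arrays with the one of null cells, so the 2 are not independent. Centring each array on its olfactory receptor genes, an alternative added after the data were seen, moved the median of all genes to -0.15 in null Eα and -0.06 in null cells. It left 20 Hox genes higher and 1 lower (Hoxc13) in null Eα cells, with a Hox median of 0.27, and 16 higher and 2 lower in null cells, with a median of 0.20. Of all genes this centring called 2733 higher in null Eα and 3536 in null cells. Of olfactory receptor genes it called 87 higher in null Eα and 48 in null cells.

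Hoxc8, which patterns the thoracic skeleton and forelimb motor pools, had signals of 5.95, 5.43 and 5.46 in null Eα cells, 5.62, 6.11 and 5.61 in null cells, and 4.49, 4.70 and 4.31 in flox cells. Both lines without β-catenin lay wholly above flox and overlapped each other. The means were 5.61 ± 0.29 in null Eα, 5.78 ± 0.28 in null and 4.50 ± 0.19 in flox cells (SD, n = 3 each). Its rise was 1.11 ± 0.18 in null Eα cells, or 2.16-fold (adjusted p = 0.000344). The rise in null cells was 1.28 ± 0.18, or 2.43-fold (adjusted p = 0.000118), the largest difference of any Hox gene in null cells.

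Hoxb9, a thoracic gene also active in the mammary gland, had signals of 7.24, 7.00 and 6.91 in null Eα cells, 6.93, 7.16 and 6.82 in null cells, and 6.10, 6.02 and 5.70 in flox cells. Here too the flox arrays stood apart below, and all 9 arrays were above the olfactory percentile. Against flox it rose by 1.11 ± 0.13 with the fusion, in null Eα cells (adjusted p = 4.97e-05), and by 1.03 ± 0.13 in null cells (adjusted p = 7.35e-05). Hoxc5, a gene of cervical and upper thoracic levels, had signals of 5.67, 5.61 and 5.29 in null Eα cells, 5.25, 5.47 and 5.32 in null cells, and 4.65, 4.42 and 4.14 in flox cells. Its flox arrays again lay below all others. The rise was 1.12 ± 0.14 in null Eα cells (adjusted p = 7.13e-05) and 0.94 ± 0.14 in null cells (adjusted p = 0.000218). The calls of Hoxc8, Hoxb9 and Hoxc5 against flox held under every alternative in which the gene was tested.

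The next genes down were picked after their values were seen. Hoxa5, needed for lung and cervicothoracic development, had 5.30, 5.52 and 5.10 in null Eα cells, 5.36, 5.87 and 5.30 in null cells, and 4.67, 4.73 and 4.50 in flox cells. Its rise was 0.67 ± 0.16 in null Eα (adjusted p = 0.00385) and 0.88 ± 0.16 in null cells (adjusted p = 0.000766). Hoxb6 had 5.78, 5.83 and 5.43 in null Eα cells, 5.38, 5.88 and 5.38 in null cells, and a tight 4.78, 4.84 and 4.88 in flox cells. Its rises were 0.85 ± 0.15 in null Eα (adjusted p = 0.000684) and 0.71 ± 0.15 in null cells (adjusted p = 0.00208). In both genes the highest null array was replicate 2.

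**Figure D3:**
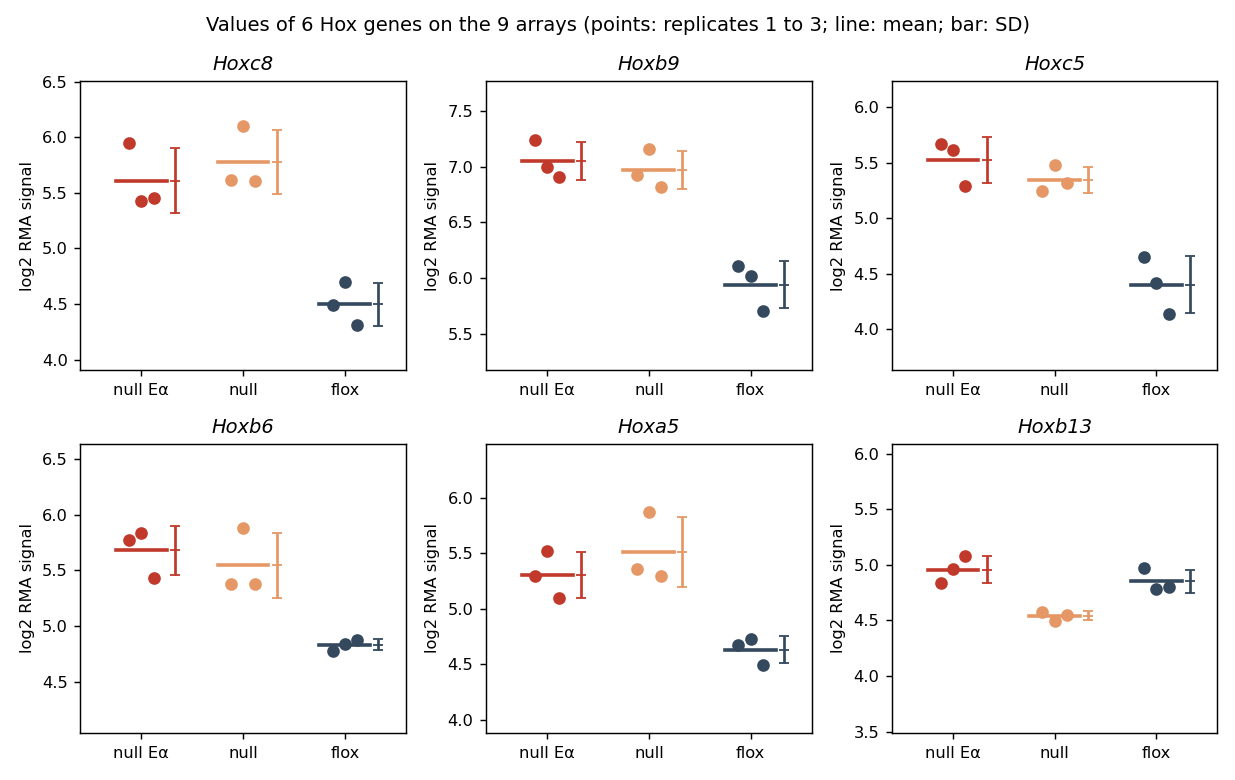
Points are the 3 arrays of null Eα (left), null (middle) and flox (right) cells, lines the means and bars the SD. The axes give log2 signal and are cut, with the same length in every panel, centred on each gene. Hoxc8, Hoxb9, Hoxc5, Hoxb6 and Hoxa5 have all flox arrays below the others, and Hoxb13 has its null arrays, at 4.50 to 4.58, below both other groups.

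HoxA, on chromosome 6, had 8 of 10 genes higher in null Eα cells with a median difference of 0.43, and 4 of 10 higher in null cells with a median of 0.25. Beside the counts of single clusters stand the shares called higher among genes in the Hox range, 44.8% in null Eα and 29.6% in null cells. In the cluster paragraphs a gene is said to be at its difference from flox, in log2 units. Hoxa4, a gene of the posterior hindbrain and neck, had 7.34, 7.08 and 7.14 in null Eα cells, 6.80, 6.94 and 6.84 in null cells, and 6.50, 6.35 and 6.20 in flox cells. Its arrays fell into 3 separate groups, and its difference from flox was 0.84 ± 0.10 in null Eα and 0.51 ± 0.10 in null cells. Hoxa9, known for its role in blood progenitors, was at 0.67 in null Eα and 0.46 in null cells, and Hoxa11, a gene of forearm, kidney and uterus, at 0.63 in null Eα and 0.50 in null cells, all called.

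The other HoxA genes were called in null Eα cells or not at all. Hoxa7 was at 0.50 in null Eα and 0.18 in null cells, where it was not called. Hoxa3, needed for thymus and parathyroid, was at 0.34 in null Eα and 0.17 in null cells, Hoxa6 at 0.36 in null Eα and 0.15 in null cells, and Hoxa10, a uterine gene, at 0.33 in null Eα and 0.09 in null cells, each called in null Eα cells. These 3 calls were lost under quantile normalization, median centring, olfactory centring and cyclic loess, which gave 0.11 to 0.26 for Hoxa3, 0.11 to 0.27 for Hoxa6 and 0.08 to 0.25 for Hoxa10, and without some single arrays. Hoxa3 lost its call without flox replicate 3 or null Eα replicate 2 (0.26 each), Hoxa6 without flox replicate 2 (0.33), flox replicate 3 (0.30) or null Eα replicate 2 (0.31), and Hoxa10 without any 1 flox array (0.31 to 0.35) or without null Eα replicate 1 (0.21). Hoxa2, a hindbrain and jaw arch gene, was at 0.31 in null Eα and 0.32 in null cells, and Hoxa13, a gene of digits and genital tubercle, at 0.12 in null Eα and -0.04 in null cells, neither called.

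HoxB, on chromosome 11, had 8 of 9 genes higher in null Eα cells with a median of 0.52, and 6 higher and 1 lower in null cells with a median of 0.37. Hoxb7, a thoracic gene, had 6.51, 6.34 and 5.91 in null Eα cells, 5.96, 5.91 and 5.91 in null cells, and 5.50, 5.35 and 5.05 in flox cells. Its difference from flox was 0.95 ± 0.15 in null Eα and 0.63 ± 0.15 in null cells. Hoxb2, a hindbrain gene, was at 0.61 in null Eα and 0.37 in null cells, Hoxb5 at 0.52 in null Eα and 0.39 in null cells, and Hoxb4, known from blood stem cells, at 0.44 in null Eα and 0.27 in null cells, all called. In null cells the calls of Hoxb4 (0.12 to 0.15) and Hoxb5 (0.25 to 0.28) were lost under quantile normalization, olfactory centring and cyclic loess, and that of Hoxb5 also without flox replicate 3 (0.27) or null replicate 3 (0.35). Hoxb1, which specifies a hindbrain segment, was called in null Eα cells at 0.34 and not in null cells at 0.08, and Hoxb3 was called in null Eα cells at 0.36 and not in null cells at 0.11. The Hoxb1 call in null Eα cells was lost under median centring (0.26), olfactory centring (0.12) and cyclic loess (0.28), and without flox replicate 3 (0.22) or null Eα replicate 2 (0.27), and the Hoxb3 call under olfactory centring (0.14).

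Hoxb13, the most posterior HoxB gene and known from the tail bud and prostate, fell in null cells. Its signals were 4.83, 4.96 and 5.08 in null Eα cells, 4.58, 4.50 and 4.54 in null cells, and 4.97, 4.78 and 4.80 in flox cells. The null arrays lay below all others. Null Eα cells differed from flox by 0.11 ± 0.09 (adjusted p = 0.292) and null cells by -0.31 ± 0.09 (adjusted p = 0.0105), or by -0.13 with chromosomes centred on their brighter genes (adjusted p = 0.204). That centring raised dim genes in general: in null cells the olfactory receptor median was 0.33 with it and 0.12 without. All 9 arrays were under the olfactory percentile.

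HoxC, on chromosome 15, had 7 of 9 genes higher in null Eα cells with a median of 0.48, and 7 higher and 1 lower in null cells with a median of 0.45. Hoxc10, a lumbar gene, was at 0.67 ± 0.07 in null Eα (adjusted p = 1.84e-05) and 0.45 ± 0.07 in null cells (adjusted p = 0.00029), with little spread in its signals: 5.20, 5.18 and 5.17 in null Eα cells, 5.02, 4.97 and 4.89 in null cells, and 4.55, 4.55 and 4.44 in flox cells. Hoxc12 was at 0.69 in null Eα and 0.35 in null cells, Hoxc11 at 0.48 in null Eα and 0.52 in null cells, and Hoxc9 at 0.47 in null Eα and 0.41 in null cells, all called. In null cells the Hoxc12 call was lost under quantile normalization, olfactory centring and cyclic loess (0.20 to 0.24), and without flox replicate 3 (0.26), null replicate 1 (0.27) or null replicate 3 (0.39). Hoxc4 was called in null Eα cells at 0.35, a call lost under the same 3 settings (0.13 to 0.14), and not in null cells at 0.20. Hoxc6 had 4.63, 4.44 and 4.40 in null Eα cells, 4.43, 5.24 and 4.62 in null cells, and 4.08, 4.17 and 4.17 in flox cells. It was not called in null Eα cells, at 0.35 ± 0.17 (adjusted p = 0.0967), and was called in null cells, at 0.62 ± 0.17 (adjusted p = 0.0112), or 0.38 without null replicate 2 (adjusted p = 0.0114). Hoxc13, a gene of hair and nail, had 4.82, 4.69 and 4.69 in null Eα cells, 4.57, 4.54 and 4.57 in null cells, and 4.87, 4.93 and 4.69 in flox cells. Null Eα cells differed from flox by -0.10 ± 0.08 (adjusted p = 0.303). Null cells differed by -0.27 ± 0.08 (adjusted p = 0.0144), by -0.22 without flox replicate 2 (adjusted p = 0.0661) and by -0.002 with chromosomes centred (adjusted p = 0.983). As given for Hoxb13, chromosome centring raised the olfactory receptor median in null cells as well.

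HoxD, on chromosome 2, had 8 of 9 genes higher in null Eα cells with a median of 0.49, and 3 of 9 higher in null cells with a median of 0.24. Hoxd12, a distal limb gene, had 5.29, 5.23 and 4.99 in null Eα cells, 4.83, 5.04 and 4.88 in null cells, and 4.60, 4.43 and 3.91 in flox cells. It was called at 0.86 ± 0.16 in null Eα and 0.60 ± 0.16 in null cells. Hoxd8, whose promoter carries the CTTTGAT pair, was called at 0.55 in null Eα and 0.51 in null cells, and Hoxd10, a lumbar motor neuron gene, at 0.29 in null Eα and 0.25 in null cells. In null cells the call of Hoxd8 was lost without flox replicate 1 (0.43), and that of Hoxd10 without flox replicate 1 (0.23) or 2 (0.24). Under quantile normalization, olfactory centring and cyclic loess the null Eα calls of both were lost, at 0.32 to 0.33 for Hoxd8 and 0.07 to 0.11 for Hoxd10. In null cells Hoxd10 was lost under these 3 as well (0.12 to 0.15), and Hoxd8 under quantile normalization (0.36) and cyclic loess (0.37).

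The other HoxD genes were called in null Eα cells or not at all. Hoxd11 was at 0.69 in null Eα and 0.24 in null cells, Hoxd4 at 0.49 in null Eα and 0.16 in null cells, and Hoxd9 at 0.49 in null Eα and 0.26 in null cells. Hoxd3 was at 0.43 in null Eα and 0.14 in null cells, and Hoxd13, the digit gene, at 0.43 in null Eα and 0.20 in null cells. None of these 5 was called in null cells. The null Eα calls of Hoxd3 (0.19 to 0.23) and Hoxd13 (0.18 to 0.23) were lost under quantile normalization, olfactory centring and cyclic loess, that of Hoxd4 under olfactory centring (0.27) and that of Hoxd9 under cyclic loess (0.26). Hoxd1, at 0.19 in null Eα and 0.07 in null cells, was called in neither. The brighter genes of the 4 Hox chromosomes had median differences from flox in null Eα and null cells of -0.65 and -0.30 on chromosome 6, -0.67 and -0.18 on chromosome 11, -0.32 and -0.27 on chromosome 15, and -0.23 and -0.17 on chromosome 2. Brighter genes were mostly lower on the other chromosomes too. Over all chromosomes these medians ran from -0.77 (chromosome 8) to -0.08 (chromosome 18) in null Eα cells. In null cells they ran from -0.65 (chromosome 8) to 0.07 (chromosome 3). Brighter means a mean log2 signal of at least 8.

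**Figure D4:**
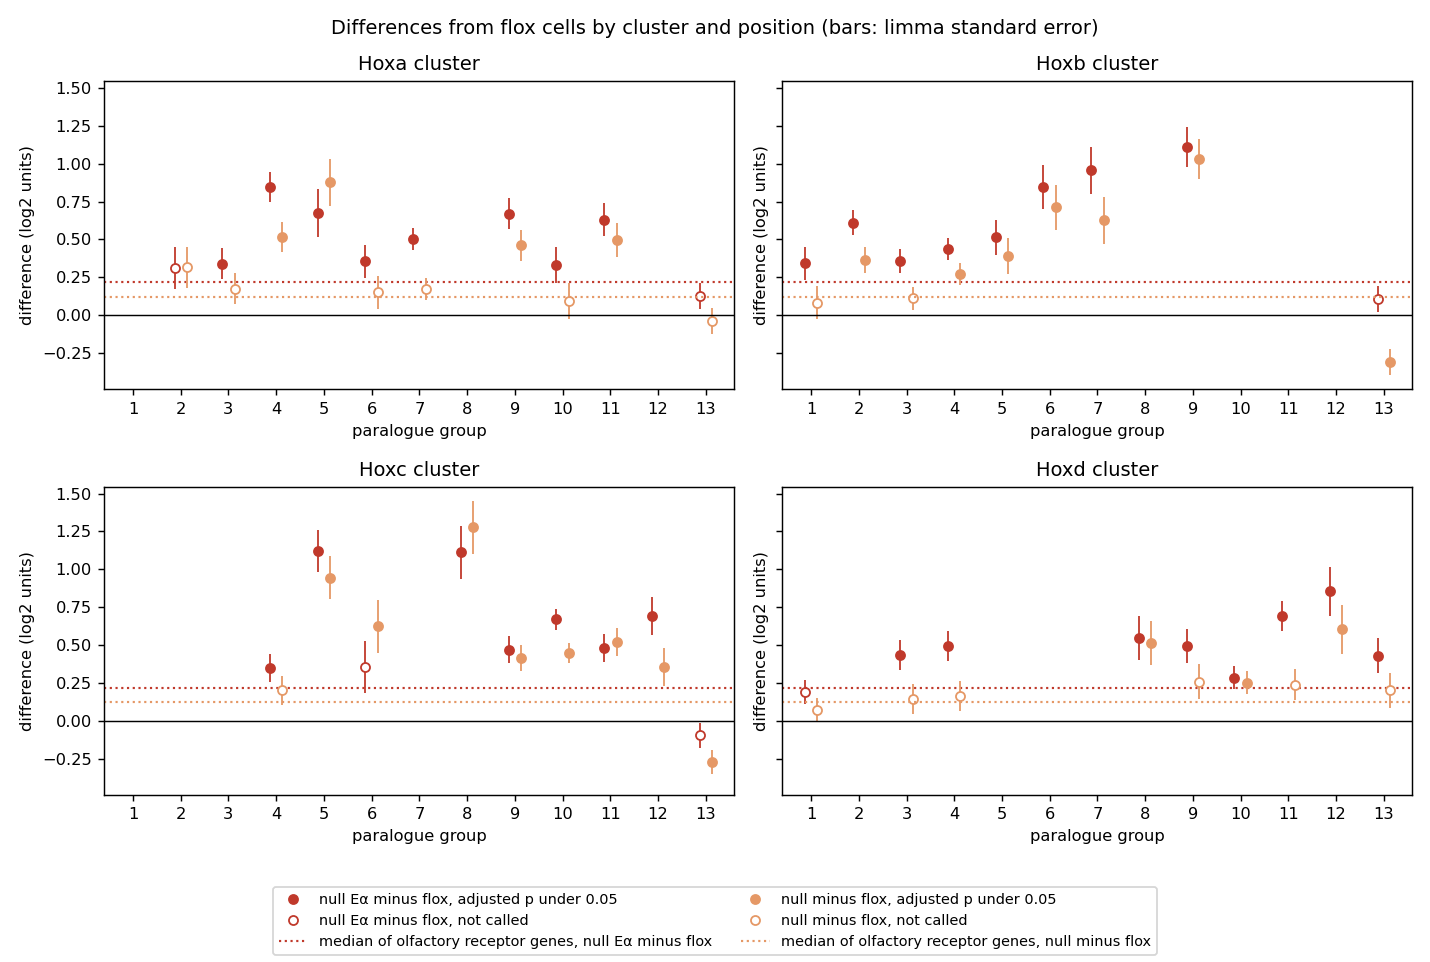
Panels are the 4 clusters, the horizontal axis is the paralogue group and the vertical axis the difference from flox in log2 units, with limma standard errors as bars. Red points are null Eα and orange points null cells, filled where called, and dotted lines are the medians of olfactory receptor genes, at 0.22 for null Eα and 0.12 for null cells. The tallest points are Hoxc8, Hoxc5 and Hoxb9, and Hoxb13 and Hoxc13 lie below 0 in null cells.

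By position, the 14 central genes (paralogue groups 4 to 8) had a median difference of 0.53 in null Eα and 0.51 in null cells, with 13 called higher in null Eα and 10 in null cells, beside 44.8% and 29.6% of genes in the Hox range in null Eα and null cells. The 7 anterior genes (groups 1 to 3) had a median of 0.34 in null Eα and 0.14 in null cells, with 5 called higher in null Eα and 1 in null cells. The 16 posterior genes (groups 9 to 13) had a median of 0.49 in null Eα and 0.31 in null cells, with 13 called higher in null Eα cells and 9 higher and 2 lower in null cells. Within the posterior genes the 4 of group 13 had a median of 0.12 in null Eα and -0.16 in null cells. Of these, Hoxd13 was called higher in null Eα cells, none was called higher in null cells at an adjusted or unadjusted p under 0.05 with limma, and Hoxb13 and Hoxc13 fell. The difference between positions was not tested, since neighbouring genes are not replicates.

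The direct comparison of null Eα with null cells asks what differs with the fusion protein present. Against null cells 7 Hox genes were higher in null Eα cells and none lower, also at an unadjusted p under 0.05, with a median difference of 0.18. Over all genes 13.6% were called higher and 18.1% lower, 14% and 8.31% in the Hox range, and 6.91% and 0.195% of olfactory receptor genes, whose median was 0.10. The Hox share called higher was 18.9%. In 12 Hox genes the null Eα arrays all lay above the null arrays, which held for 22.0% of all genes, 26.0% of genes in the same range and 16.2% of olfactory receptor genes. The calls were Hoxa4, Hoxa7, Hoxb3, Hoxb13, Hoxc10, Hoxd4 and Hoxd11.

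Hoxd11, which acts with Hoxa11 in kidney and forearm, had 6.11, 6.19 and 5.90 in null Eα cells and 5.47, 5.78 and 5.58 in null cells, a difference of 0.45 ± 0.10 (adjusted p = 0.00695). Hoxb13 differed by 0.42 ± 0.09 (adjusted p = 0.00451), and Hoxa7 had 6.17, 6.24 and 6.11 in null Eα cells against 5.84, 5.87 and 5.82 in null cells, at 0.33 ± 0.07 (adjusted p = 0.00668). These 3 calls held under every alternative in which the gene was tested. Hoxa4 (0.33), Hoxd4 (0.33), Hoxb3 (0.25) and Hoxc10 (0.22) each lost the call when arrays were centred on olfactory receptor genes or on their median. Leaving out single arrays ended these calls as well: Hoxa4 without null replicate 1 (0.30), null replicate 3 (0.32) or null Eα replicate 1 (0.25), Hoxd4 without null replicate 1 (0.32), null replicate 3 (0.25), null Eα replicate 2 (0.35) or null Eα replicate 3 (0.27), Hoxb3 without any 1 array other than flox replicate 3 and null Eα replicate 3 (0.22 to 0.27), and Hoxc10 without flox replicate 2 (0.22), null replicate 2 (0.23) or 3 (0.19), or null Eα replicate 1 (0.21) or 2 (0.23). The genes with the largest rises against flox were not called between the lines without β-catenin: Hoxc8 was at -0.17 ± 0.18 (adjusted p = 0.49), Hoxb9 at 0.08 ± 0.13 (adjusted p = 0.665) and Hoxc5 at 0.18 ± 0.14 (adjusted p = 0.359), and their arrays overlapped.

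The clusters hold 10 other genes with a feature, 6 of them microRNA genes. Of these 10, 8 rose in null Eα cells, with a median of 0.37, and 5 in null cells, with a median of 0.21, beside 32.1% and 26.5% of all genes and 42.8% and 16% of olfactory receptor genes in null Eα and null cells, and none fell at an adjusted or unadjusted p under 0.05 with limma. Against null cells none was called in null Eα cells with limma, and 2 were higher at an unadjusted p under 0.05. Mir615, which lies within Hoxc5 and gives the miR-615-3p shown above, had 7.99, 8.34 and 7.96 in null Eα cells, 7.70, 7.71 and 7.79 in null cells, and 7.24, 6.97 and 6.80 in flox cells. All 3 groups stood apart. Mir615 rose by 1.09 ± 0.13 in null Eα (adjusted p = 4.64e-05) and by 0.73 ± 0.13 in null cells (adjusted p = 0.00072). Probes on a short hairpin within a gene can read the host transcript, so this is no measure of the mature strand.

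The miR-10 genes moved less. Mir10b, within the annotated spans of Hoxd3 and Hoxd4, had 3.03, 3.09 and 3.12 in null Eα cells, 3.01, 2.95 and 2.93 in null cells, and 2.69, 2.79 and 2.79 in flox cells, which is under the median of the olfactory receptor genes on every array. It was called at 0.32 in null Eα and 0.21 in null cells. Mir10a, inside Hoxb3, was called at 0.37 in null Eα cells and not called at 0.21 in null cells. Of the genes that share the miR-196 seed, Mir196a-2 in HoxC was called at 0.43 in null Eα and 0.23 in null cells. Mir196b in HoxA was called at 0.31 in null Eα cells and not at 0.17 in null cells, and Mir196a-1 in HoxB was called in neither, at -0.08 in null Eα and -0.09 in null cells. Hoxd3os1, an antisense RNA of HoxD, rose by 0.82 ± 0.18 in null Eα and by 0.66 ± 0.18 in null cells. 5730596B20Rik, inside Hoxa3, rose by 0.62 in null Eα and 0.39 in null cells. Hoxaas2 was called at 0.37 in null Eα and not at 0.16 in null cells, and Haglr was called in neither, at 0.22 in null Eα and 0.14 in null cells.

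Genes just outside the clusters were mixed, again as log2 differences from flox unless a signal is named. Among the 40 nearest tested genes, 5 on each side of each cluster, 8 were higher and 16 lower in null Eα cells, with a median difference from flox of -0.07, and 8 higher and 12 lower in null cells, with a median of 0.00. These are 20% higher and 40% lower in null Eα cells, beside 32.1% and 31.6% of all genes. In null cells they are 20% and 30%, beside 26.5% and 28.7%. Calcoco2, an autophagy receptor gene beside HoxB, had a signal of 8.13 in null Eα and 5.06 in null cells, against 9.80 in flox cells. Its neighbour Ttll6 was at -2.01 in null Eα and -2.92 in null cells, and Mtx2, next to Hoxd1, at -1.43 in null Eα and -1.22 in null cells. Evx2, a homeobox gene at the posterior end of HoxD, rose by 0.48 in null Eα and 0.32 in null cells. Evx1 at the end of HoxA was called at 0.51 in null Eα cells and not at 0.17 in null cells. Cbx3, near HoxA and coding for a heterochromatin protein, rose by 0.39 in null Eα and 1.26 in null cells. Mir688, near HoxC, rose by 1.18 in null Eα and 0.88 in null cells. Gm11529, next to HoxB, rose by 0.86 in null Eα and 0.37 in null cells.

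Regulators and partners of Hox genes were followed as lists, with single genes at their log2 difference from flox. Beside all list counts, here and for markers, stand 32.1% of all genes called higher and 31.6% lower in null Eα cells, and 26.5% higher and 28.7% lower in null cells. Of 25 measured Polycomb genes, 1 was higher and 15 lower in null Eα cells, with a median difference from flox of -0.69, and 2 higher and 16 lower in null cells, with a median of -0.64. Cbx7, a chromodomain subunit of Polycomb repressive complex 1 (PRC1) prominent in ES cells, was at -1.28 in null Eα and -2.09 in null cells. Rybp, another PRC1 subunit, was at -1.89 in null Eα and -2.41 in null cells, and Pcgf6 at -1.22 in null Eα and -1.69 in null cells. Ezh2, the H3K27 methyltransferase, was at -1.12 in null Eα and -0.50 in null cells, all called. Of 11 Trithorax and other activating chromatin genes, 10 were lower in null Eα cells and 9 in null cells. None was higher, also at an unadjusted p under 0.05 with limma. Kdm6a, an H3K27 demethylase, was called at -0.67 in null Eα and -1.03 in null cells. Over all genes the median difference was 0.07 in null Eα and 0.06 in null cells, and it was below 0 in most bins of brighter genes, as the plot of differences against signal level shows. Genes with a mean signal of 8.0 to 8.5 had medians of -0.41 in null Eα and -0.26 in null cells. With genes of a mean under 6 left out, 11323 genes remained. Of these, 2413 were higher and 5646 lower in null Eα cells, and 3153 higher and 4957 lower in null cells. The Polycomb and Trithorax counts are to be read beside these.

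Of 18 measured retinoic acid pathway genes, 6 were higher and 9 lower in null Eα cells, and 7 higher and 8 lower in null cells. The receptor gene Rarg was called at -1.12 in null Eα and -1.79 in null cells, and Rara at -1.34 in null Eα and -1.31 in null cells. Stra8, of the same list, was called at -1.57 in null Eα and -1.80 in null cells. Rarb and Cyp26b1, also of this list, rose by 0.33 and 0.70 in null Eα and by 0.335 and 0.55 in null cells. Rdh10, which makes the retinal that is oxidised to retinoic acid, rose by 1.19 in null Eα and 2.48 in null cells. Of 8 measured axial regulators, 5 were higher and 1 lower in null Eα cells, and 3 higher and 1 lower in null cells. Cdx2, which binds Hox regulatory sequence, averaged 5.57 in null Eα, 5.39 in null and 5.10 in flox cells and rose by 0.47 in null Eα and 0.29 in null cells. Fgf8, a ligand of the growing tail end, rose by 0.98 in null Eα and 0.64 in null cells, and Egr2, a hindbrain activator of Hox genes, by 0.58 in null Eα and 0.90 in null cells. Nr6a1, a trunk timing factor, was called at -1.39 in null Eα and -0.78 in null cells. Cdx1 and Cdx4 were not called, at 0.14 and 0.08 in null Eα and -0.05 and -0.06 in null cells.

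Of 8 measured cofactor genes of the Pbx, Meis and Pknox families, which bind DNA together with Hox proteins, 1 was higher and 5 lower in null Eα cells, and 1 higher and 4 lower in null cells. Meis2 was called at -1.46 in null Eα and -1.36 in null cells, Pbx4 at -0.80 in null Eα and -0.72 in null cells, and Pbx2 at -1.26 in null Eα and -0.50 in null cells. Meis1 rose in null Eα cells, by 0.37, and Pknox2 in null cells, by 0.86. Of 12 related homeobox genes outside the clusters, 5 were higher and 2 lower in null Eα cells, and 3 higher and 2 lower in null cells. Among these, the ParaHox gene Gsx1 rose by 0.54 in null Eα and 0.33 in null cells, and Pdx1 by 0.55 in null Eα and 0.33 in null cells. En2, a midbrain-hindbrain gene, was called at -1.07 in null Eα and -1.66 in null cells.

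Markers of another cell type were also mostly higher than in flox cells. Of 15 fibroblast markers, 13 were higher and 0 lower in null Eα cells, and 12 higher and 0 lower in null cells, against flox with limma. At an unadjusted p under 0.05 the counts were 13 higher and 0 lower in null Eα cells, and 13 higher and 1 lower in null cells. Their mean signal was 7.74, 7.48 and 7.56 in null Eα cells, 7.96, 8.63 and 7.91 in null cells, and 5.62, 5.65 and 5.51 in flox cells. Lox, which crosslinks collagen, rose by 4.44 in null Eα and 5.41 in null cells, and Col1a1, a fibrillar collagen gene, by 3.16 in null Eα and 4.28 in null cells. Above the olfactory percentile stood 13 of the 15 on every null Eα array, 13 to 14 on null arrays and 9 on flox arrays. Fap was above it on 0 of the 9 arrays and Lum on 1. Fap was nevertheless called higher, by 0.40 in null Eα and 0.60 in null cells, and Lum was called in neither. Null replicate 2 had the highest fibroblast mean, and it was also the highest null array for 22 of the 37 Hox genes and for 13 of the 20 called higher in null cells. Null Eα replicate 2, with the lowest fibroblast mean of its group, was the highest null Eα array for 18 Hox genes. Flox replicate 2, with the highest fibroblast mean of its group, was the highest flox array for 11, against 21 for flox replicate 1. These are orders of 3 arrays per group, and genes on an array are not replicates, so nothing is concluded from them. Between the lines without β-catenin, 6 fibroblast markers were lower and 1 was higher in null Eα cells, against null cells. In the same comparison 7 Hox genes were higher and 0 lower. The Hox share called higher was 18.9%, beside 13.6% of all genes, 14% in the Hox range and 6.91% of olfactory receptor genes. Under median centring or olfactory centring 3 Hox genes were called higher. No Hox order opposite to the marker order is concluded from these counts. The part of these markers in the Hox differences was not tested.

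**Figure D5:**
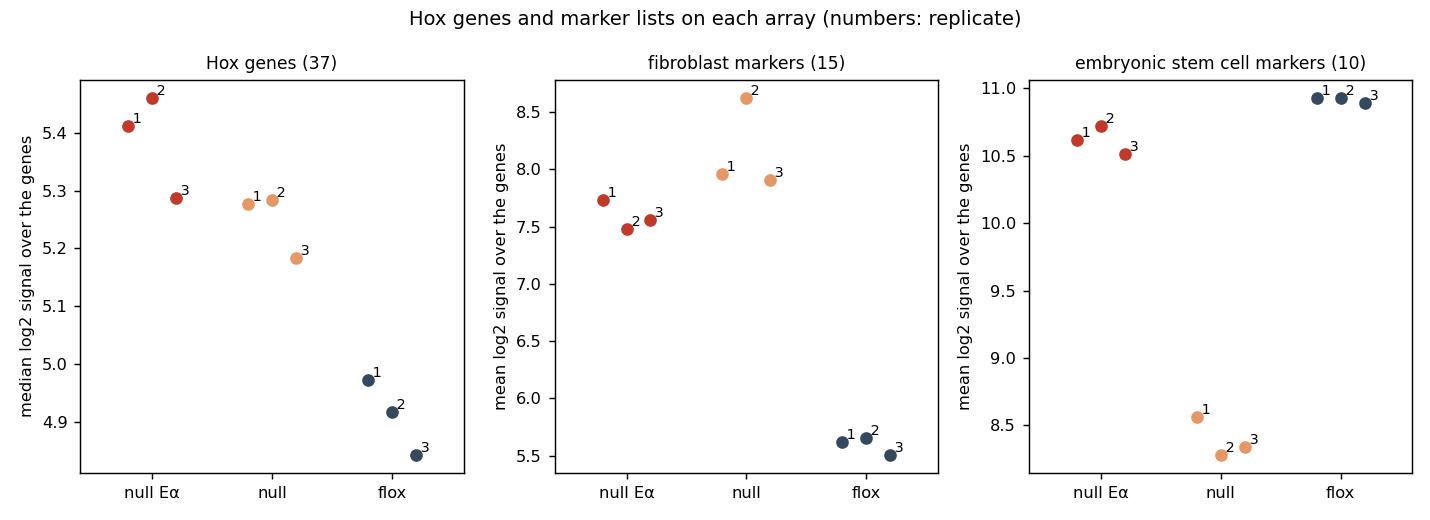
Points are arrays, numbered by replicate, for null Eα (left), null (middle) and flox (right) cells. The vertical axes give the median log2 signal of the 37 Hox genes and the mean log2 signal of 15 fibroblast and 10 ES markers, on axes cut to the data. Hox genes and fibroblast markers are lowest in flox cells, and null replicate 2 is the highest for fibroblast markers, at 8.63.

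Other lineages were mixed. Of 10 mesoderm markers, 5 were higher and 1 lower in null Eα cells, and 5 higher and 2 lower in null cells, among them Foxc1, at 0.65 in null Eα and 0.88 in null cells, and Eomes, at -1.25 in null Eα and -2.32 in null cells. Of 8 measured neural markers, 2 were higher and 1 lower in null Eα cells, and 3 higher and 3 lower in null cells. Extraembryonic endoderm markers gave 5 higher and 1 lower of 10 in null Eα cells, and 4 higher and 2 lower in null cells, and trophoblast markers 1 higher and 4 lower of 8 in each. The mean signal over mesoderm markers was 5.93 to 5.99 in null Eα, 5.74 to 5.88 in null and 5.71 to 5.81 in flox cells. Over endoderm markers it was 6.26 to 6.32 in null Eα, 6.26 to 6.28 in null and 6.06 to 6.20 in flox cells, and over trophoblast markers 6.43 to 6.54 in null Eα, 5.87 to 6.07 in null and 6.83 to 6.86 in flox cells. For neural markers it was 6.26 to 6.45 in null Eα, 6.11 to 6.14 in null and 6.18 to 6.23 in flox cells. Their part in the Hox differences was not tested either.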

How the data were processed

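Total RNA of 9 samples was labelled with biotin and hybridised to whole-transcript arrays made by Affymetrix. The authors deposited log2 RMA values, 1 per feature and array, per the submitters' processing notes; no version is given, and whether the 9 arrays were normalized together is not stated. Values ran from 2.02 to 13.92. The number of arrays limits the precision. Groups came from the sample titles.

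Gene names came from GEO's platform annotation, which listed 23410 of 35556 features, 21789 with 1 symbol. Of several features of a gene the one with the highest mean was kept, which gave 19938 genes. No dim gene was filtered out in the reported results. The limma package (version 3.58.1, R 4.3.3) gave the differences from 1 fit of all 9 arrays (lmFit and eBayes, 6 residual degrees of freedom), with Benjamini-Hochberg adjustment over all genes for each comparison, and a gene was called at an adjusted p under 0.05. Errors after ± are limma's standard errors unless marked SD. Tables and figures were made with Python 3.11.15 and matplotlib 3.10.9, and the fit was tested on simulated data. Replicate numbers were not used as a block in the reported fit. Of 9 same-number pairs, correlations of deviations ran from -0.04 to 0.26, with 3 over 0.1. For pairs with different numbers they ran from -0.20 to 0.14. The closest sample of another group had the same number in 12 of 18 cases. Whether equal numbers mark paired samples was not tested.

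Values on each array are given for Hox genes called with a difference of at least 1 (log2) and no overlap, and for genes picked after their values were seen. Of each list up to 3 called genes per comparison with the smallest p could be named, and list genes named beyond that, as well as neighbours, were picked after their values were seen. The members and all lists were chosen with earlier results of these data known. Alternatives covered feature choice, normalization, a filter on dim genes, the prior, chromosome and olfactory centring, the replicate block and leaving out each array, 19 in all.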

Additional observations from a re-analysis of the deposited data

How the results depend on the processing

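The Hox counts were recomputed under 19 alternatives, 2 of them (olfactory centring and cyclic loess) added after the data were seen. Of 2010 single differences so obtained, 1798 kept direction and side of the threshold, 105 lost a call, 64 gained one and 43 changed sign, 41 of them called in neither setting. Part of this agreement was fixed in advance. Feature choice could not change the difference of a Hox gene with 1 feature. The prior, the replicate block and fits of only the groups compared left differences unchanged and could move only the p-values. The same holds for leaving out an array of a group not compared. With chromosomes centred on their brighter genes, Hoxa13 in null cells (0.27) and Hoxc13 in null Eα cells (0.22) changed sign and were called. The others were called in neither setting. Under quantile normalization, against flox, Hoxa10 (-0.046) and Hoxd1 (-0.029) in null cells and Hoxa13 (-0.079) and Hoxb13 (-0.10) in null Eα cells changed sign. Under olfactory centring these were Hoxa10 (-0.021), Hoxb1 (-0.031), Hoxb3 (-0.004) and Hoxd1 (-0.045) in null cells, and Hoxa13 (-0.095), Hoxb13 (-0.11) and Hoxd1 (-0.032) in null Eα cells. Under cyclic loess they were Hoxa10 (-0.061), Hoxd1 (-0.069) and Hoxd3 (-0.009) in null cells, and Hoxa13 (-0.12), Hoxb13 (-0.14) and Hoxd1 (-0.036) in null Eα cells. Between null Eα and null cells they were Hoxc9 (-0.017), Hoxd8 (-0.028) and Hoxd10 (-0.040) under quantile normalization, Hoxd8 (-0.014) and Hoxd10 (-0.013) under median centring, Hoxb9 (-0.025), Hoxc9 (-0.051), Hoxd8 (-0.073) and Hoxd10 (-0.072) under olfactory centring, Hoxc9 (-0.032), Hoxd8 (-0.052) and Hoxd10 (-0.051) under cyclic loess, and Hoxa2 (0.34), Hoxa5 (0.14) and Hoxc11 (0.008) with chromosomes centred. With single arrays left out, the range crossed 0 for Hoxa10 (-0.004 to 0.186), Hoxa13 (-0.11 to 0.004) and Hoxb1 (-0.042 to 0.149) in null cells against flox, and for Hoxa2 (-0.116 to 0.174), Hoxb9 (-0.015 to 0.175) and Hoxd8 (-0.085 to 0.185) between null Eα and null cells. In null cells, against 20 higher and 2 lower, chromosome centring gave 34 and 0, and leaving dim genes out gave 2 and 0 of the 4 Hox genes left. Leaving out single arrays gave 18 to 22 higher and 1 to 2 lower. Quantile normalization and cyclic loess gave 15 higher and 2 lower each. Chromosome centring also called 9340 of all 19938 genes and 715 of the 1027 olfactory receptor genes higher in null cells. The medians of these 2 sets were then 0.23 and 0.33. Quantile normalization called 4825 of all genes and 40 olfactory receptor genes higher there, and cyclic loess 4540 and 42. In null Eα cells, against 31 higher and 0 lower, the filter on dim genes gave 4 higher, olfactory centring 20 and 1 lower, and quantile normalization 23 and 1, cyclic loess 21 and 1, and single arrays left out 27 to 33 and 0. Of all genes, olfactory centring called 2733 higher there, quantile normalization 4943 and cyclic loess 4458. Of olfactory receptor genes these settings called 87, 106 and 96 higher. Between null Eα and null cells, against 7 higher, median centring gave 3, the dim filter 2, olfactory centring 3, chromosome centring 22 and arrays left out 3 (without null replicate 3) or 4 (without null Eα replicate 2) to 9. Of all genes, median centring called 2084 higher in this comparison, olfactory centring 1556 and chromosome centring 5748. Of olfactory receptor genes these called 30, 15 and 237 higher. The shift of dim genes that these settings change was not traced to a cause: the cause was not tested. With replicate number as a block the counts were 21 higher and 2 lower in null, 32 and 0 in null Eα against flox, and 9 and 0 in null Eα against null, and the closest sample of another group had the same number in 12 of 18 cases. Against flox, 15 of the 22 calls in null cells and 19 of the 31 in null Eα cells held under every alternative in which the gene was tested.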

Other observations

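A feature shared by Hoxb8 and Hoxb7, which names no single gene and was left out of the counts, had 4.84, 5.04 and 4.88 in null Eα cells, 4.74, 4.84 and 4.88 in null cells, and 4.24, 4.67 and 4.38 in flox cells. Its mean differences from flox were 0.49 in null Eα and 0.39 in null cells, and it lay above the olfactory percentile on 0 arrays. A second feature of Hoxd3os1 had means of 4.66 in null Eα, 4.62 in null and 4.31 in flox cells. Its differences from flox, 0.35 in null Eα and 0.31 in null cells, had the sign of the feature used, at a lower signal.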
